A study of Homo sapiens with 12 samples.

Results

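The 9 genes described here carry the signal from DNA in the cytosol to interferon-stimulated genes: CGAS, STING1, TBK1, IRF3, IRF7, IRF9, STAT2, ISG15 and IFITM1. They were chosen by name, out of 60671 genes in the deposited table, and each name matched 1 row. Of the 9, 8 reached a mean of 1 FPKM over the 12 libraries and were tested, and CGAS did not. FPKM count fragments relative to gene length and library total, so levels can be set side by side between genes.

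The cells were labelled Jurkat, a human T cell leukemia line, and fell into 4 groups of 3 libraries. NC+DMSO was control cells with the solvent, NC+VCR control cells with vincristine (VCR), PTPN21+DMSO cells overexpressing PTPN21 with the solvent, and PTPN21+VCR those cells with VCR, all for 48 h. The labels give the control genotype as WT, while the study describes controls that carry a GFP vector. By that description all 4 groups had been transduced, which was not checked here. PTPN21 is a tyrosine phosphatase that was FLAG-tagged and driven by the SFFV promoter, and VCR blocks the polymerization of tubulin. No source used here states which dose of VCR the sequenced cells received. The methods give 3 replicates per group and mention independent experiments in general, without saying whether these libraries were separate cultures, so p-values measure only the spread between libraries, which may be technical.

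The libraries were checked against their labels first. PTPN21 was between 0.0212 and 0.569 FPKM in the 6 NC libraries and between 4.34 and 10.5 in the 6 PTPN21 libraries, with no overlap. The T cell markers went against the cell line label. Of 8 markers, 6 were under 1 FPKM in all 12 libraries, and LCK, CD5 and CD28 were at 0 in all 12. CD3E did not exceed 0.146 FPKM, and CD3G did not exceed 1.03, whereas CD3D was between 61.8 and 139.7 FPKM. The markers of plasmacytoid dendritic cells were at 0 in all libraries, and those of NK cells and fibroblasts did not exceed 0.106 FPKM. In contrast, GATA1, KLF1, NFE2, ALAS2 and EPOR, genes known from red cell precursors and picked after their values were seen, were together between 213.8 and 275.9 FPKM in NC+DMSO. The cells are therefore called here only by their group. Estimated depth was at most 18000000 fragments in NC libraries and at least 20600000 in PTPN21 libraries, so depth and construct cannot be told apart.

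In this pathway, the enzyme cGAS binds double-stranded DNA in the cytosol and makes a cyclic dinucleotide, which binds the membrane adaptor STING. STING recruits the kinase TBK1, which phosphorylates IRF3, and IRF3 together with IRF7 switches on type I interferon genes. Interferon then acts through its receptor and the kinases JAK1 and TYK2 on STAT factors, of which STAT2 joins IRF9 in the complex ISGF3, which drives genes such as ISG15 and IFITM1.

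ISGF3 binds the interferon-stimulated response element, whose core was searched as GAAA, any 2 bases and GAAA. The promoters of ISG15 and IFITM1 are shown because, of the members with a promoter sequence at hand, only these had a match to it. Both are RefSeq sequences of the 250 bases before the gene start, in GRCh38.p14, on the plus strand and 5′ to 3′, with matches to the core in capitals. The ISG15 window is chr1:1013247-1013496 and that of IFITM1 chr11:313790-314039. RefSeq sets both starts inside the GENCODE gene spans given further on, which begin upstream of them.
ISG15: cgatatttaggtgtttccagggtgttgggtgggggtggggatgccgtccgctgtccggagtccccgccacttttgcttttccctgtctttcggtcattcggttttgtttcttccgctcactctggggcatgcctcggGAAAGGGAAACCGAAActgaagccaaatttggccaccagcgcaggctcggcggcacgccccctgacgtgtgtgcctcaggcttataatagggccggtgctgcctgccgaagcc
IFITM1: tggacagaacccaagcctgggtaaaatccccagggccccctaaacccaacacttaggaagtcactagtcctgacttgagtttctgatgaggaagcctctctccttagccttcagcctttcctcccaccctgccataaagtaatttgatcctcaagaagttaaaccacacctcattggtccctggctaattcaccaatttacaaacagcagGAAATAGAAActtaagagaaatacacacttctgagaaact

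The ISG15 promoter held 2 matches that overlap each other, from -113 to -104 and from -107 to -98 relative to the start, and the IFITM1 promoter held 1, from -40 to -31. Both strands were searched, and 3.02% of 35116 promoters of the same length held the core. The core of the gamma-activated site, searched as TTC, any 3 bases and GAA, was found once in the IFITM1 promoter, from -12 to -4, and once in that of IRF9, from -63 to -55, against 6.57% of all promoters. RefSeq promoters were matched for 5 of the 9 genes, and those of TBK1 and STAT2 held neither core in this window. A match describes letters and does not by itself show binding.

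The genes differed in level by several orders of magnitude. In NC+DMSO, the mean FPKM was 662.5 ± 33.3 (SD, n = 3) for IFITM1, which ranked 140 of 11591 genes tested by its mean over all libraries. ISG15 and TBK1 followed at 27.4 and 23.9 FPKM and overlapped each other between libraries. IRF3 and STING1, at 12.4 and 9.13 FPKM, also overlapped, and so did STAT2, IRF9 and IRF7, at 2.82, 2.13 and 1.46 FPKM. IFITM1 was the highest and IRF3 and STING1 the fourth and the fifth in all 4 groups, with no overlap between IFITM1 and the gene next to it.

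**Figure D1:**
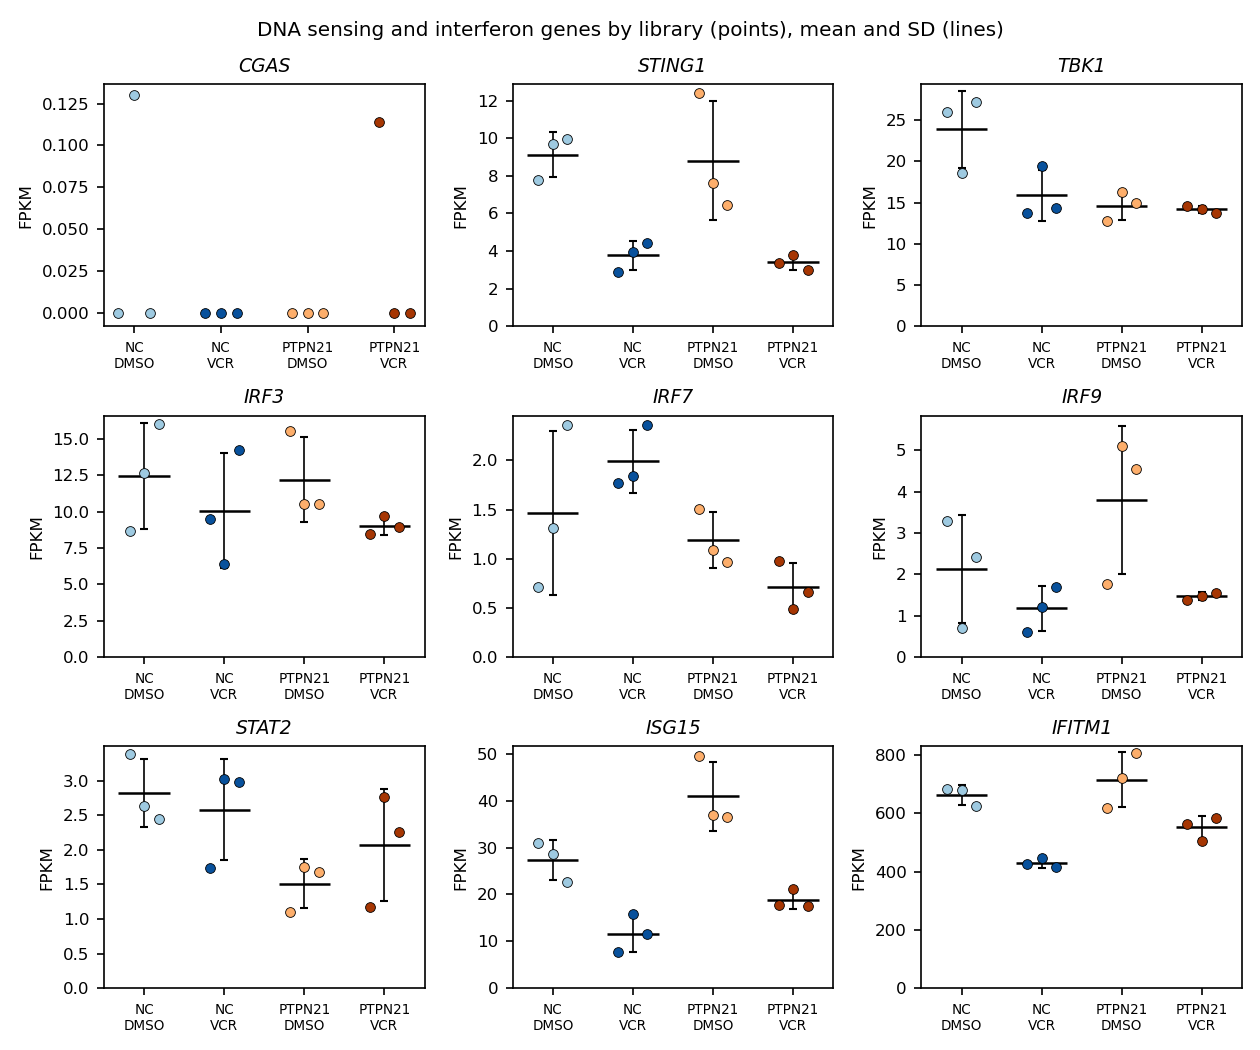
FPKM (y axis, linear) of the 9 genes in the 4 groups (x axis), with 1 point per library, the mean as a horizontal line and the SD as a vertical bar; CGAS has points only. STING1 in the VCR groups lies below 4.5 FPKM and in the DMSO groups above 6.4, and ISG15 of either construct is lower with VCR than with DMSO in every library.

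CGAS, the sensor itself, was listed at 0 in 10 of 12 libraries (ENSG00000164430, chromosome 6 from 73413515 to 73452276 on the minus strand in GENCODE release 29, GRCh38). The exceptions were NC+DMSO replicate 2 at 0.130 FPKM and PTPN21+VCR replicate 1 at 0.114 FPKM. CGAS was thus at 0 or close to it in all groups, and no fold change is given.

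The ligands at the other end were not seen either. All 21 interferon genes listed, IFNB1 among them, were at 0 in all 12 libraries. STING1, TBK1, the 4 transcription factors, ISG15 and IFITM1 were above 0 in every library.

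The question of the first comparison was how VCR changed these genes in control cells. In NC+VCR, STING1, TBK1, ISG15 and IFITM1 fell against NC+DMSO, and IRF3, IRF7, IRF9 and STAT2 did not pass the test. These were 4 of 8 genes tested, all lower, in limma with Benjamini-Hochberg adjustment over all 11591 genes and a threshold of 0.05. Of all genes tested, 36.2% passed in this comparison, 7.91% as higher and 28.3% as lower. The groups did not overlap for 3 of the 8 genes, against 44.1% of all genes. The median log2 fold change was -0.51 over the 8 genes and -0.36 over all genes. Less RNA per cell and fewer cells of a type cannot be told apart in bulk RNA.

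STING1, the adaptor (ENSG00000184584, chromosome 5 from 139475534 to 139482935, minus strand), had 7.77, 9.68 and 9.93 FPKM in NC+DMSO and 2.90, 3.96 and 4.44 FPKM in NC+VCR. All 3 VCR libraries were below all 3 DMSO libraries. The mean was 2.42-fold lower, with a log2 fold change of -1.09 (SE 0.24; adjusted p = 0.0040 in limma) on the log2(FPKM + 1) scale. Relative to the median of all genes it was -0.73. With quantile normalization the value was -0.69 and missed the threshold (adjusted p = 0.057 in limma).

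ISG15, a ubiquitin-like protein that is joined to other proteins (ENSG00000187608, chromosome 1 from 1001138 to 1014540, plus strand), had 30.9, 28.5 and 22.7 FPKM in NC+DMSO and 7.76, 15.7 and 11.5 FPKM in NC+VCR. The groups did not overlap, and NC+VCR replicate 1 was the lowest of all libraries. On the log2 scale the change was -1.20 (SE 0.22; adjusted p = 0.0018 in limma), a mean 2.35-fold lower and -0.84 relative to the median of all genes. This change passed in all 20 alternatives, with limma adjusted p from 0.00075 to 0.0324.

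IFITM1, a membrane protein that hinders virus entry (ENSG00000185885, chromosome 11 from 313506 to 315272, plus strand), had 684.6, 678.6 and 624.2 FPKM in NC+DMSO and 424.9, 447.9 and 417.2 FPKM in NC+VCR. The libraries of each group lay close together, and the groups were apart. Its log2 fold change was -0.62 (SE 0.11; adjusted p = 0.0011 in limma), and -0.26 relative to the median of all genes. With median ratio scaling, which sets that median near 0, it was -0.22 and missed the threshold (adjusted p = 0.250 in limma). IFITM1 shares 351 exon bases with IFITM2 on the same strand, and reads of these similar genes may have been split between them.

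TBK1, the kinase (ENSG00000183735, chromosome 12 from 64451880 to 64502108, plus strand), had 25.9, 18.6 and 27.2 FPKM in NC+DMSO and 13.8, 19.4 and 14.4 FPKM in NC+VCR. Here the groups overlapped, since NC+VCR replicate 2 was above NC+DMSO replicate 2. This gave a log2 fold change of -0.56 (SE 0.18; adjusted p = 0.0318 in limma), and -0.20 relative to the median of all genes. It missed the threshold without NC+DMSO replicate 1 (-0.49), NC+DMSO replicate 3 (-0.46), NC+VCR replicate 1 (-0.47) or NC+VCR replicate 3 (-0.50), and with median ratio scaling (-0.17) or quantile normalization (-0.28). With no filter, with only the groups compared and with the replicate block it also missed it, and in all it passed in 11 of 20 alternatives. An antisense gene shares 702 exon bases with TBK1, and the counting is not stated to use strand.

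Among the transcription factors, IRF3 (ENSG00000126456) was between 8.69 and 16.0 FPKM in NC+DMSO and between 6.43 and 14.2 in NC+VCR. IRF7 (ENSG00000185507), which interferon itself induces in many cells, was between 0.714 and 2.36 FPKM and between 1.77 and 2.36. STAT2 (ENSG00000170581) was between 2.44 and 3.38 FPKM and between 1.74 and 3.02. All these groups overlapped, with log2 fold changes of -0.31 for IRF3, 0.33 for IRF7 and -0.11 for STAT2, and limma adjusted p from 0.334 to 0.769. With quantile normalization IRF7 passed as higher, with a log2 fold change of 0.74 (adjusted p = 0.0393 in limma), so that 1 of 3 members called was then higher.

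IRF9, the DNA-binding subunit of ISGF3 (ENSG00000213928), had 3.28, 0.701 and 2.41 FPKM in NC+DMSO and 0.615, 1.22 and 1.71 FPKM in NC+VCR. NC+DMSO replicate 2 was below 2 of the VCR libraries. The log2 fold change was -0.45 with a 95% interval from -1.27 to 0.36, so a change of the size of that of STING1 was within the error. A gene on the same strand shares 1838 exon bases with IRF9, and the opposite-strand gene BCL2L12 shares 734 with IRF3, which makes the values of both uncertain.

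The same comparison was made in PTPN21 cells. STING1, ISG15 and IFITM1 fell in PTPN21+VCR against PTPN21+DMSO, 3 of 8 genes tested. Of all genes, 28.5% passed in this comparison, 9.22% as higher and 19.3% as lower. The groups did not overlap for 5 of the 8 genes, against 50.4% of all genes. The median log2 fold change was -0.37 over the 8 genes and -0.17 over all genes.

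STING1 had 12.4, 7.61 and 6.44 FPKM in PTPN21+DMSO and 3.38, 3.79 and 3.01 FPKM in PTPN21+VCR. PTPN21+DMSO replicate 1 stood above the other libraries, and all DMSO libraries were above all VCR libraries. The log2 fold change was -1.12 (SE 0.24; adjusted p = 0.0044 in limma), and it passed in 20 of 20 alternatives. Without PTPN21+DMSO replicate 1 it was -0.87.

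ISG15 had 49.4, 36.8 and 36.4 FPKM in PTPN21+DMSO and 17.8, 21.1 and 17.5 FPKM in PTPN21+VCR. The groups were far apart. On the log2 scale the change was -1.07 (SE 0.22; adjusted p = 0.0041 in limma), a mean 2.18-fold lower, and it passed in 20 of 20 alternatives.

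IFITM1 had 618.5, 722.4 and 806.1 FPKM in PTPN21+DMSO and 563.1, 506.5 and 585.4 FPKM in PTPN21+VCR. The groups did not overlap, but PTPN21+DMSO replicate 1 and PTPN21+VCR replicate 3 were close. This gave a log2 fold change of -0.37 (SE 0.11; adjusted p = 0.0233 in limma). It missed the threshold without PTPN21+DMSO replicate 2 (-0.36), PTPN21+DMSO replicate 3 (-0.28), PTPN21+VCR replicate 1 (-0.39) or PTPN21+VCR replicate 2 (-0.31), and with median ratio scaling (-0.18, adjusted p = 0.340 in limma). Without the trend it also missed it (adjusted p = 0.0780 in limma), and in all it passed in 14 of 20 alternatives.

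TBK1 had 12.7, 16.3 and 14.9 FPKM in PTPN21+DMSO and 14.6, 14.2 and 13.7 FPKM in PTPN21+VCR. These groups overlapped throughout, with a log2 fold change of -0.04 and a 95% interval from -0.43 to 0.36. IRF9 had 1.76, 5.10 and 4.54 FPKM in PTPN21+DMSO and 1.39, 1.49 and 1.56 FPKM in PTPN21+VCR. All 3 VCR libraries were below the DMSO libraries, and the IRF9 mean was 2.57-fold lower. Its log2 fold change of -0.87 missed the threshold (adjusted p = 0.103 in limma). Without PTPN21+DMSO replicate 1, the DMSO library nearest to the VCR libraries, it was -1.23 and passed (adjusted p = 0.0359 in limma). IRF3, IRF7 and STAT2 had log2 fold changes of -0.37, -0.36 and 0.26, with limma adjusted p from 0.325 to 0.481.

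**Figure D2:**
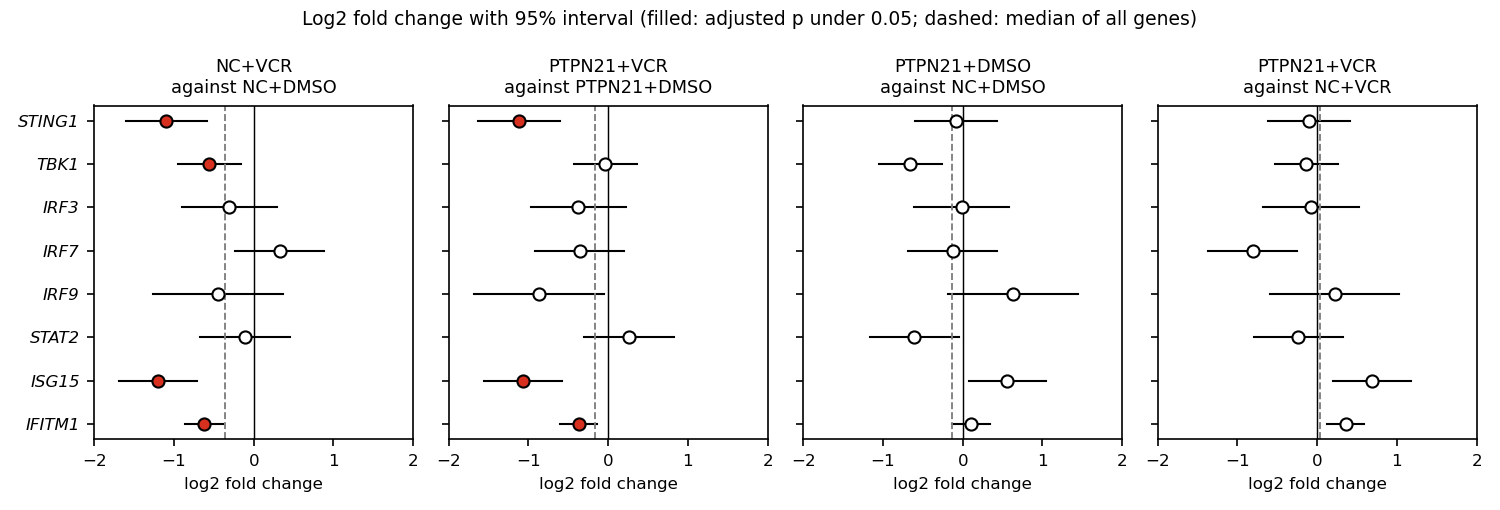
Log2 fold change on the log2(FPKM + 1) scale (x axis) of the 8 tested genes (rows) in 4 comparisons (panels), with limma's 95% interval as a line; filled points passed an adjusted p of 0.05 and the dashed line is the median of all genes tested. STING1, ISG15 and IFITM1 are filled in both VCR panels, TBK1 in control cells only (the interaction of TBK1 had adjusted p = 0.387 in limma), and no point is filled in the PTPN21 panels.

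The genes of red cell precursors named above moved in the same libraries. Together, GATA1, KLF1, NFE2, ALAS2 and EPOR were between 213.8 and 275.9 FPKM in NC+DMSO and between 35.5 and 50.9 FPKM in NC+VCR. In PTPN21 cells their sum was between 239.5 and 293.4 FPKM with DMSO and between 55.8 and 64.9 FPKM with VCR. For 5 of the 5 genes, every VCR library was below every DMSO library of the same construct, and EPOR was at 0 in 1 NC+VCR library. HBG1, a globin gene looked at with these but left out of the sum, was between 270.7 and 447.6 FPKM in NC+DMSO and between 187.8 and 231.7 in NC+VCR. In PTPN21 cells HBG1 was between 560.9 and 709.1 FPKM with DMSO and between 196.4 and 293.6 with VCR. Of all genes tested, groups did not overlap for 44.1% in control cells and 50.4% in PTPN21 cells. The part of the genes of red cell precursors in the changes of STING1, ISG15, IFITM1 and TBK1 was not tested.

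Whether the VCR response differed between the constructs was tested by the interaction. In limma, 0 of 8 genes passed, against 0.129% of all genes (0.0259% higher and 0.104% lower), and 0 of 8 had an unadjusted p under 0.05, against 14.0% of all genes. The lowest limma adjusted p was that of TBK1, at 0.387, with an interaction of 0.52 and a 95% interval from -0.04 to 1.08. For STING1 the interaction was -0.02, with an interval from -0.75 to 0.71, and for ISG15 it was 0.13, with an interval from -0.56 to 0.82. Differences between the constructs up to these bounds were within the error.

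PTPN21 overexpression was then compared with control cells in DMSO. In limma, 0 of 8 genes passed in PTPN21+DMSO against NC+DMSO, where 6.34% of all genes did (2.65% higher and 3.69% lower), and 3 of 8 had an unadjusted p under 0.05, against 25.6% of all genes. These 3 were TBK1, ISG15 and STAT2, and the same 3 had groups without overlap, against 33.4% of all genes.

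TBK1, with the DMSO values given above, was between 18.6 and 27.2 FPKM in NC+DMSO and between 12.7 and 16.3 in PTPN21+DMSO. The log2 fold change of -0.66 (SE 0.18) just missed the threshold (adjusted p = 0.0517 in limma). It passed without NC+DMSO replicate 2 (-0.82, adjusted p = 0.0186 in limma), without NC+VCR replicate 2 (-0.66, adjusted p = 0.0407 in limma) and with TPM scaling (-0.80, adjusted p = 0.0328 in limma). STAT2 had 3.38, 2.64 and 2.44 FPKM in NC+DMSO and 1.10, 1.75 and 1.68 in PTPN21+DMSO, with a log2 fold change of -0.61 (adjusted p = 0.165 in limma). ISG15 was above its NC+DMSO range in every PTPN21+DMSO library, with a log2 fold change of 0.56 (adjusted p = 0.144 in limma). Of the genes of red cell precursors, 2 of 5, GATA1 and KLF1, were also higher in every PTPN21+DMSO library than in every NC+DMSO library. So was HBG1, which is not among the 5. The part of these genes in these values was not tested. In this comparison, groups did not overlap for 33.4% of all genes.

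Of the genes with overlapping groups, STING1 had a log2 fold change of -0.09, IRF3 of -0.01, IRF7 of -0.12, IRF9 of 0.64 and IFITM1 of 0.10. The widest interval was that of IRF9, from -0.18 to 1.45.

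Under VCR, the comparison of the study, 0 of 8 genes passed between PTPN21+VCR and NC+VCR in limma, where 1.82% of all genes did, and 3 of 8 had an unadjusted p under 0.05, against 17.1% of all genes. ISG15, IFITM1 and IRF7 were these 3, and their groups did not overlap, against 22.5% of all genes.

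ISG15, at 7.76, 15.7 and 11.5 FPKM in NC+VCR, was at 17.8, 21.1 and 17.5 FPKM in PTPN21+VCR. The log2 fold change was 0.69 (SE 0.22; adjusted p = 0.136 in limma), and it passed in 0 of 20 alternatives. IFITM1 was between 417.2 and 447.9 FPKM in NC+VCR and between 506.5 and 585.4 in PTPN21+VCR, with a log2 fold change of 0.36 (SE 0.11; adjusted p = 0.111 in limma). IRF7 had 1.77, 1.84 and 2.36 FPKM in NC+VCR and 0.982, 0.488 and 0.660 in PTPN21+VCR, with a log2 fold change of -0.81 (SE 0.26; adjusted p = 0.127 in limma). The IRF7 mean was 2.80-fold lower, since the log2(FPKM + 1) scale understates changes at so low a level. Every PTPN21+VCR library was thus higher for ISG15 and IFITM1, and lower for IRF7, without passing the test. STING1, TBK1, IRF3, IRF9 and STAT2 had log2 fold changes between -0.24 and 0.22 and overlapping groups.

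The comparisons share libraries with each other, PTPN21+DMSO with both of its neighbours for example, so a value in one is not independent of the next. The genes of red cell precursors also differed under VCR: 3 of 5, KLF1, NFE2 and ALAS2, were higher in every PTPN21+VCR library than in every NC+VCR library. HBG1, not among the 5, overlapped between these groups. Groups did not overlap for 22.5% of all genes in that comparison. The part of the genes of red cell precursors in the values of ISG15 and IFITM1 was not tested.

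The other genes of the pathway were taken from lists of 128 genes, of which 62 were tested and 37 were at 0 in all 12 libraries. In NC+VCR against NC+DMSO, 6 rose and 16 fell, 35.5% of the 62 against 36.2% of all genes tested. In PTPN21+VCR against PTPN21+DMSO, 8 rose and 12 fell, 32.3% against 28.5% of all genes. The median log2 fold change over the 62 was -0.41 and -0.22 in these comparisons, against -0.36 and -0.17 over all genes. PTPN21+DMSO differed from NC+DMSO in 4 of the 62, or 6.45%, against 6.34% of all genes. In limma, PTPN21+VCR differed from NC+VCR in 0 of 62, against 1.82% of all genes. Of the 62, 9 had an unadjusted p under 0.05 there, against 17.1% of all genes. The interaction passed for 0 of the 62, against 0.129% of all genes.

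The DNA sensors AIM2 and IFI16 moved against the direction of STING1. AIM2, which builds an inflammasome on cytosolic DNA, had 0.441, 0.666 and 1.496 FPKM in NC+DMSO and 17.7, 25.0 and 18.4 FPKM in NC+VCR. In PTPN21 cells it had 0.440, 0.378 and 0.344 FPKM with DMSO and 14.1, 27.2 and 24.4 FPKM with VCR. Every VCR library was far above every DMSO library, with log2 fold changes of 3.54 (adjusted p = 5.03e-06 in limma) and 3.995 (adjusted p = 2.10e-06 in limma). Its mean in both DMSO groups was under the filter of 1 FPKM, so AIM2 was tested because of its VCR libraries, and it also passed with no filter.

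IFI16, a nuclear and cytosolic DNA sensor of the same protein family, had 4.66, 2.73 and 3.07 FPKM in NC+DMSO and 33.2, 31.98 and 32.7 FPKM in NC+VCR. In PTPN21 cells it had 1.55, 4.26 and 3.06 FPKM with DMSO and 39.4, 42.9 and 38.1 FPKM with VCR. The groups were separate, with log2 fold changes of 2.93 (adjusted p = 7.91e-06 in limma) and 3.44 (adjusted p = 2.24e-06 in limma). Both genes passed in 20 of 20 alternatives in each construct. Of the 20 tested genes of DNA sensing and its regulators, they were the only ones that rose in either comparison, while 9 fell in control cells and 4 in PTPN21 cells. Of all genes tested, 7.91% rose and 28.3% fell in control cells, and 9.22% rose and 19.3% fell in PTPN21 cells. PRKDC, the DNA-dependent protein kinase, fell from 93.8, 36.2 and 57.0 FPKM to 21.0, 21.6 and 19.2 FPKM in control cells, with a log2 fold change of -1.45 (adjusted p = 0.0019 in limma). In PTPN21 cells PRKDC had 21.7, 32.5 and 26.2 FPKM with DMSO and 22.8, 24.6 and 18.4 FPKM with VCR, groups that overlapped, with a log2 fold change of -0.27 (adjusted p = 0.503 in limma) and an interaction that missed the threshold (adjusted p = 0.228 in limma). IKBKE, a kinase related to TBK1, fell from 4.06, 5.42 and 5.54 FPKM to 0.997, 1.41 and 0.636 FPKM in PTPN21 cells, with a log2 fold change of -1.59 (adjusted p = 0.0275 in limma). That call was lost without PTPN21+DMSO replicate 1, 2 or 3 or PTPN21+VCR replicate 1 or 3, with values from -1.70 to -1.44, and also with no filter or a pseudocount of 0.1, so that it passed in 13 of 20 alternatives. In control cells IKBKE had 2.91, 2.59 and 7.43 FPKM with DMSO and 3.71, 0.0088 and 0.857 FPKM with VCR, groups that overlapped. The interaction of IKBKE did not pass. TREX1, which degrades cytosolic DNA, did not exceed 0.281 FPKM.

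**Figure D3:**
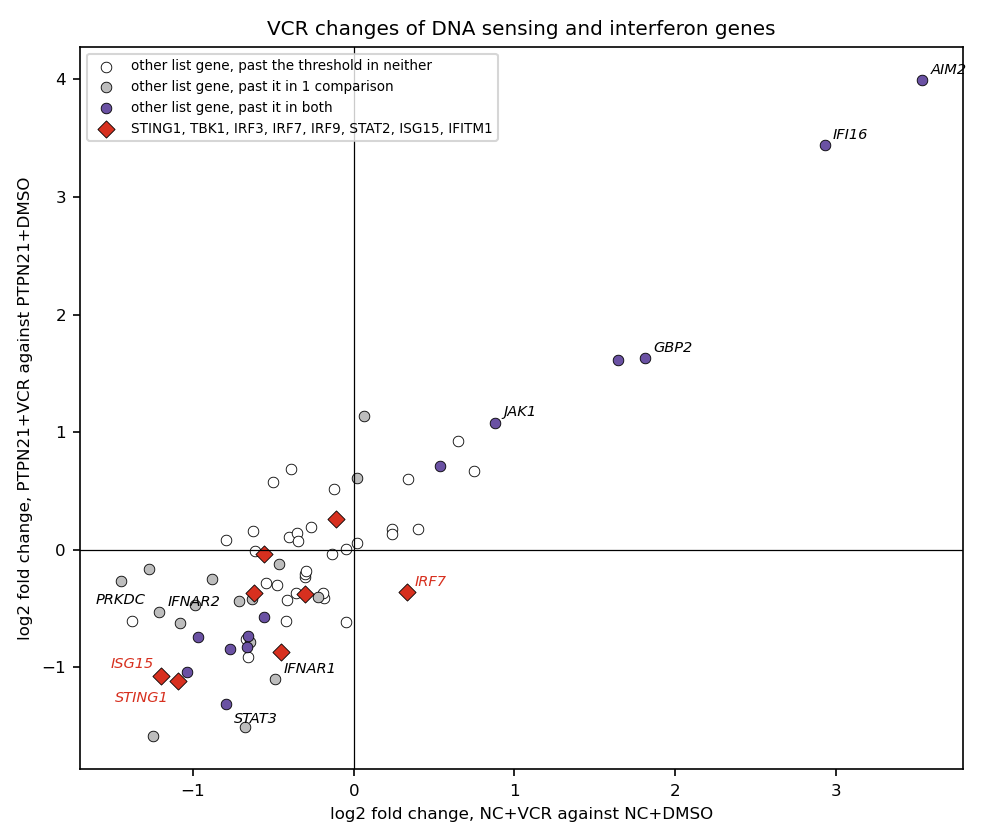
Log2 fold change with VCR in control cells (x axis) against that in PTPN21 cells (y axis), both on the log2(FPKM + 1) scale, for 62 list genes (circles, filled by whether they passed the threshold) and the 8 tested members (diamonds). AIM2 lies at 3.54 and 3.995 and IFI16 at 2.93 and 3.44, whereas STING1 and ISG15 lie below -1 on both axes.

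The receptor and its kinases changed unequally with VCR. IFNAR2, a chain of the type I interferon receptor, had 10.7, 15.9 and 11.3 FPKM in NC+DMSO and 9.01, 3.92 and 2.99 FPKM in NC+VCR, with a log2 fold change of -1.21 (adjusted p = 0.0114 in limma). It missed the threshold with median ratio scaling (-0.85, adjusted p = 0.0724 in limma) and with quantile normalization (-0.82, adjusted p = 0.0804 in limma). In PTPN21 cells its log2 fold change was -0.53 (adjusted p = 0.235 in limma). IFNAR1, the other chain, fell in PTPN21 cells from 6.70, 7.16 and 10.0 FPKM to 3.06, 3.30 and 3.03 FPKM, with a log2 fold change of -1.10 (adjusted p = 0.0021 in limma), and in control cells its log2 fold change was -0.49 (adjusted p = 0.0807 in limma). The interaction passed for neither chain, with adjusted p of 0.368 in limma for IFNAR1 and a higher one for IFNAR2.

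JAK1 rose in both constructs, from 5.35, 2.68 and 3.57 FPKM to 7.46, 7.76 and 7.94 FPKM in control cells and from 1.62, 2.94 and 3.35 FPKM to 6.35, 7.36 and 5.94 FPKM in PTPN21 cells. The groups did not overlap, with log2 fold changes of 0.88 (adjusted p = 0.0155 in limma) and 1.08 (adjusted p = 0.0064 in limma). Without NC+DMSO replicate 2 the value in control cells was 0.70 and missed the threshold. TYK2 fell in both, with log2 fold changes of -0.66 (adjusted p = 0.0361 in limma) and -0.73 (adjusted p = 0.0277 in limma). In control cells TYK2 passed in 11 of 20 alternatives and missed the threshold with median ratio scaling (-0.33, adjusted p = 0.298 in limma), with quantile normalization (-0.24, adjusted p = 0.458 in limma), with no filter, with only the groups compared, with the replicate block and without NC+DMSO replicate 2 or 3 or NC+VCR replicate 1 or 3 (-0.69 to -0.54). In PTPN21 cells it passed in 14 of 20 and missed the threshold with median ratio scaling (-0.58), with quantile normalization (-0.55) and without replicate 2 or 3 of either group (-0.79 to -0.61).

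STAT3, which many cytokines activate, fell in PTPN21 cells from 29.9, 27.7 and 30.2 FPKM to 11.6, 10.5 and 11.5 FPKM, with a log2 fold change of -1.31 (adjusted p = 0.0022 in limma). Its values in control cells are not given here, and the interaction passed for 0 of the 62 list genes.

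**Figure D4:**
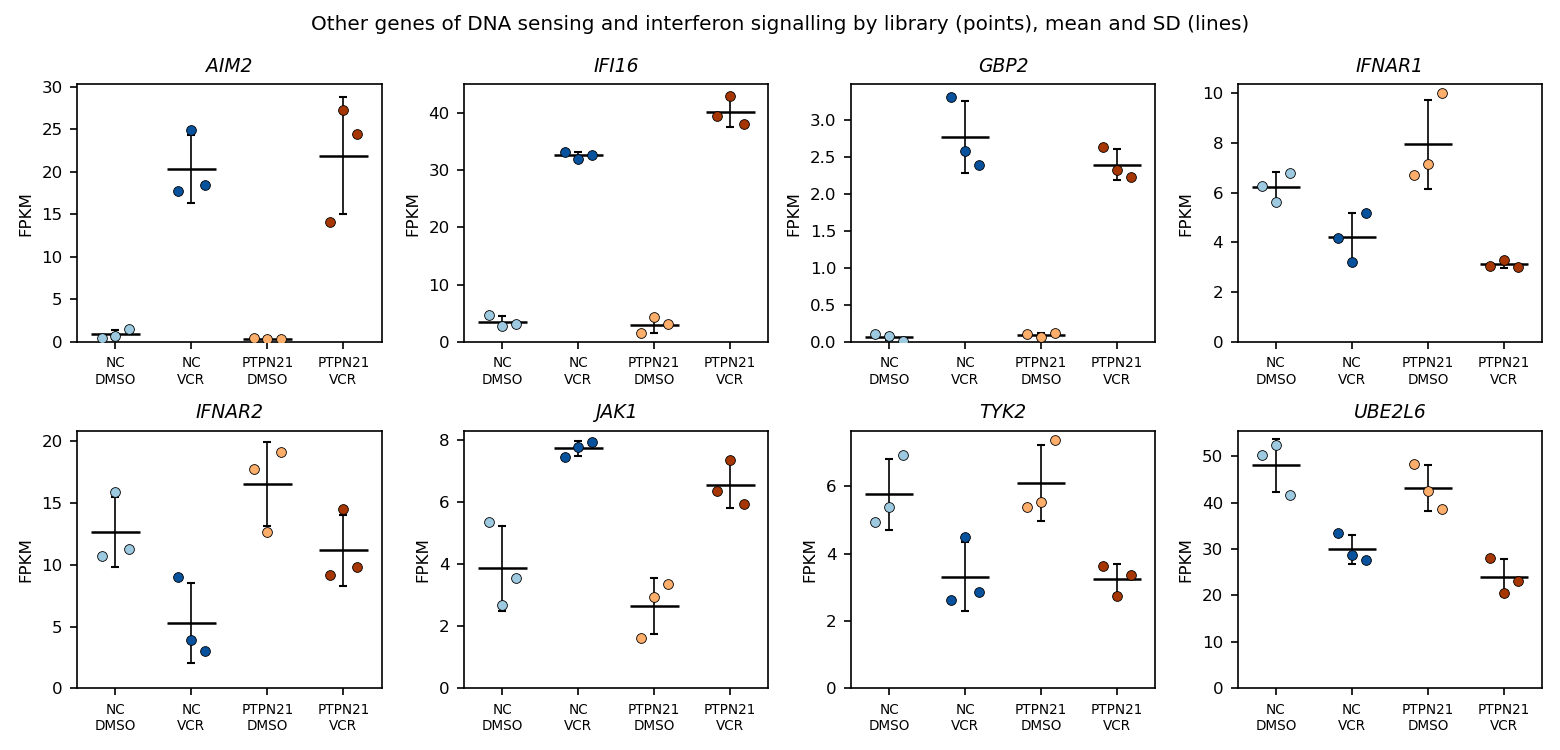
FPKM (y axis, linear) of 8 other genes of the pathway in the 4 groups (x axis), with 1 point per library, the mean as a horizontal line and the SD as a vertical bar. AIM2, IFI16, GBP2 and JAK1 are higher in every VCR library than in the DMSO libraries of the same construct, and UBE2L6 is lower.

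UBE2L6, the conjugating enzyme that joins ISG15 to proteins, had 50.2, 52.3 and 41.6 FPKM in NC+DMSO and 33.4, 28.7 and 27.5 FPKM in NC+VCR, and in PTPN21 cells 48.4, 42.4 and 38.5 FPKM with DMSO and 28.2, 20.4 and 23.1 FPKM with VCR. Like ISG15, it was lower in every VCR library, with log2 fold changes of -0.66 (adjusted p = 0.0062 in limma) and -0.83 (adjusted p = 0.0021 in limma). With median ratio scaling the first was -0.27 and missed the threshold (adjusted p = 0.281 in limma), as it did with quantile normalization (-0.45, adjusted p = 0.0557 in limma). The activating enzyme UBA7 did not exceed 0.921 FPKM, the ligase HERC5 was at 0 in all libraries, and USP18, which removes ISG15, did not exceed 0.644 FPKM.

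Of 17 other interferon-stimulated genes tested, 2 rose and 1 fell in NC+VCR against NC+DMSO, 17.6% against 36.2% of all genes. In PTPN21+VCR against PTPN21+DMSO, 3 rose and 3 fell, 35.3% against 28.5% of all genes. GBP2, a guanylate-binding protein, was between 0.0160 and 0.105 FPKM in NC+DMSO and between 2.40 and 3.32 in NC+VCR, and between 0.066 and 0.117 FPKM and between 2.23 and 2.64 in PTPN21 cells. Its log2 fold changes were 1.81 (adjusted p = 3.72e-05 in limma) and 1.63 (adjusted p = 8.03e-05 in limma), on a scale that understates the change of so low a gene. GBP2 came through the filter only because of its VCR libraries, and it also passed with no filter. SP110, a nuclear body protein, fell in PTPN21 cells with a log2 fold change of -1.50 (adjusted p = 0.0155 in limma), a call lost with no filter and without PTPN21+VCR replicate 1 or 2, at -1.38 each. The interaction of SP110 did not pass, and its values in control cells are not given here. The relatives of IFITM1 did not pass in either comparison. IFITM2 was between 56.0 and 89.6 FPKM in NC+DMSO and between 86.6 and 109.7 in NC+VCR, with a log2 fold change of 0.40 (adjusted p = 0.0954 in limma), and IFITM3 had a log2 fold change of 0.75 (adjusted p = 0.0547 in limma).

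The 4 list genes that differed between PTPN21+DMSO and NC+DMSO were all lower. PTPN11, a phosphatase that acts on cytokine signalling, had 19.6, 11.4 and 30.2 FPKM in NC+DMSO and 5.61, 7.05 and 7.21 FPKM in PTPN21+DMSO, with a log2 fold change of -1.40 (adjusted p = 0.0236 in limma). PTPN1, which acts on JAK kinases, had 15.3, 13.5 and 22.3 FPKM and 5.12, 8.87 and 7.01 FPKM, with a log2 fold change of -1.17 (adjusted p = 0.0162 in limma). PRKDC had a log2 fold change of -1.10 (adjusted p = 0.0380 in limma). TRIM25, a ubiquitin ligase of RNA sensing named after its values were seen, had one of -0.72 (adjusted p = 0.0474 in limma), which passed in 4 of 20 alternatives. In PTPN21+VCR against PTPN21+DMSO, TRIM25 instead rose. That rise passed in 15 of 20 alternatives, and where it was lost the values were from 0.45 to 0.68. The call of PTPN11 was lost without NC+DMSO replicate 1 or 3 or PTPN21+DMSO replicate 1 or 3, with values from -1.45 to -1.08. That of PTPN1 was lost without NC+DMSO replicate 3 (-0.97) or PTPN21+DMSO replicate 1 (-0.99), and that of PRKDC without any of 7 libraries, NC+DMSO replicate 1 or 3, PTPN21+DMSO replicate 1 or 3 and each PTPN21+VCR library, with values from -1.11 to -0.76. Counting the other settings too, PTPN11 passed in 13 of 20 alternatives, PTPN1 in 17 and PRKDC in 8.

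The genes most like the called members over the 12 libraries were found by the root mean square difference of profiles centred on their means on the log2(FPKM + 1) scale. For STING1 they were TBC1D2, at a difference of 0.184, and ZNF611, at 0.187, where the spread of STING1 itself was 0.599. The nearest to ISG15 were PSMG1 at 0.197 and MRPS22 at 0.202, against a spread of 0.693. IFITM1 was nearest to NDUFA5 at 0.0831 and FDX1 at 0.105, against 0.297, and TBK1 to AC079466.1 and DESI2 at 0.101 each, against 0.329. None of these 8 genes was on the pathway lists, and the measure describes a likeness of levels only.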

How the data were processed

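The authors deposited 1 table of FPKM for 12 RNA libraries, 3 in each of 4 groups taken from the sample labels, and an external company processed the reads. The submitters' processing notes name fastp, Bowtie2 and the mouse build mm10, whereas the gene identifiers are human. The counting program, annotation and strand setting are not given in the sources used here. FPKM depend on the total of each library, so a few high genes can shift all others. The identifiers matched GENCODE release 29 (GRCh38) for 96.3% of genes, and positions were taken from it. Depth was estimated from 8702 single-exon genes, from the spacing of the products of FPKM and length. Of low values, 35.6% to 48.6% were near a whole step (within 0.1). Chance gives 20% for a step fixed in advance. The step was picked for the highest share among those searched, so 20% is too low a benchmark. Depth limits mainly genes at low FPKM. Correlation between replicates was 0.939 to 0.976 across genes, which are not independent replicates.

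Genes with a mean of at least 1 FPKM were kept and their deposited FPKM put on the log2(FPKM + 1) scale. This scale understates the fold changes of genes at low FPKM. The 4 group means were estimated in 1 model without a block, using limma (version 3.58.1, R version 4.3.3) with its trend option. The 5 comparisons were two-sided, with Benjamini-Hochberg adjustment over 11591 genes at 0.05. There were 20 alternatives: a pseudocount of 0.1, no filter, median ratio scaling, quantile normalization, TPM scaling, no trend, only the groups compared, a replicate block and leaving out each of 12 libraries.

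All members are named with their values. Of the other lists, named genes are the 3 largest rises and falls per comparison among those past the threshold without overlap, and the direct partners of the members; exceptions are said to be chosen after their values were seen. Values of 1 direct partner are not reported here. Members and lists were chosen with earlier results of these data known. RIGI was matched by its identifier under an older symbol. Of the marker lists, B cell markers summed to at most 1.84 FPKM, NK cell markers to 0.106 and fibroblast markers to 0.0944, and monocyte or macrophage markers to between 10.1 and 20.4 FPKM, mostly LYZ. The software was Python (3.11.15), with pandas (2.3.3) for tables, numpy (2.4.6) for arithmetic and matplotlib (3.10.9) for figures.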

Additional observations from a re-analysis of the deposited data

How the results depend on the processing

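The falls of STING1 and ISG15 with VCR kept their direction in all alternatives in both constructs, and PTPN21+VCR against NC+VCR gave 0 members in all 20 and the interaction in the 19 run, since it cannot be estimated with only the groups compared. Estimated depth limits what can be said of CGAS and other genes near 0. In NC+VCR against NC+DMSO, 2 members, STING1 and ISG15, passed with median ratio scaling, 14 other list genes passed with it, and 2674 of all genes passed with only the groups compared. Of all calls in that comparison, 917 were higher and 3275 lower, which became 1734 and 1311 with median ratio scaling and 1540 and 1393 with quantile normalization. In PTPN21+VCR against PTPN21+DMSO, 1069 higher and 2239 lower became 1541 and 1451, and 1645 and 1545. In PTPN21+DMSO against NC+DMSO, 307 higher and 428 lower became 421 and 134, 367 and 307, and 224 and 870 with TPM scaling, and in PTPN21+VCR against NC+VCR 116 higher and 95 lower became 56 and 74 with median ratio scaling; for the interaction 3 and 12 became 12 and 16 with TPM scaling. The cause was not tested.

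In PTPN21+DMSO against NC+DMSO, all genes past the threshold numbered 735, and 177 with no filter, 321 without the trend, 40 with only the groups compared and 54 to 1347 when 1 library was left out. Members there numbered 1, TBK1, with TPM scaling, and 0 to 1 when 1 library was left out. Other list genes numbered 1 with no filter, 2 with median ratio scaling, 2 without the trend, 0 with only the groups compared and 0 to 6 when 1 library was left out. In PTPN21+VCR against NC+VCR, all genes numbered 211, and 118 with no filter, 130 with median ratio scaling, 72 without the trend, 117 with only the groups compared and 43 to 357 when 1 library was left out, and other list genes numbered 0 to 1. The interaction gave 15 genes, and 8 with no filter, 28 with TPM scaling, 9 without the trend and 7 to 30 when 1 library was left out. The fits with the groups alone and without a library use fewer samples, and the fit with no filter tests more genes. Leaving out 1 library moved the counts both up and down, and the cause of the shifts was not tested.

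No shared deviation was seen between libraries with the same replicate number, and no source used here states whether they were handled together. Over 18 pairs of libraries with the same number, deviations from the group means correlated between -0.15 and 0.06, and 2 of 12 libraries correlated best with their own number. With the replicate block, 242 of all genes and 1 other list gene passed in PTPN21+DMSO against NC+DMSO, 74 genes in PTPN21+VCR against NC+VCR and 8 for the interaction. In NC+VCR against NC+DMSO, 3 members passed with the block, since TBK1 missed the threshold (adjusted p = 0.0549 in limma).

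Values that changed sign had all missed the threshold. With median ratio scaling and with quantile normalization, the log2 fold change of STING1 in PTPN21+DMSO against NC+DMSO was 0.096 and 0.099, that of TBK1 in PTPN21+VCR against PTPN21+DMSO 0.14 and 0.16, that of IRF3 in NC+VCR against NC+DMSO 0.061 and 0.056 and in PTPN21+DMSO against NC+DMSO 0.17 and 0.16, and that of STAT2 in NC+VCR against NC+DMSO 0.18 and 0.32. The ISG15 interaction was -0.0748 with median ratio scaling, and IFITM1 in PTPN21+DMSO against NC+DMSO was -0.16 with quantile normalization and -0.044 with TPM scaling. With TPM scaling the interaction was 0.068 for STING1 and 0.016 for IRF3. When 1 library was left out, STING1 ran from -0.33 to 0.090 and IRF3 from -0.23 to 0.18 and IRF7 from -0.36 to 0.13 in PTPN21+DMSO against NC+DMSO. TBK1 ran from -0.13 to 0.039 in PTPN21+VCR against PTPN21+DMSO and from -0.23 to 0.0089 in PTPN21+VCR against NC+VCR, where IRF3 ran from -0.33 to 0.18. STAT2 ran from -0.20 to 0.075 in NC+VCR against NC+DMSO, and the interaction from -0.20 to 0.23 for STING1, from -0.32 to 0.19 for IRF3 and from -0.11 to 0.36 for ISG15. Over all single genes, comparisons and planned settings, 439 log2 fold changes kept direction and side of the threshold, 32 lost a call, 2 gained one and 15 changed sign. When 1 library was left out, these numbers were 685, 37, 3 and 19. Values that missed the threshold and stayed so are counted as kept.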

Other observations

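Further list genes, named here after their values were seen, also moved with VCR. IFI27, an interferon-stimulated mitochondrial protein, was at 3.32, 0.227 and 3.27 FPKM in NC+DMSO and at 5.96, 10.3 and 7.73 FPKM in NC+VCR, with a log2 fold change of 1.64 (adjusted p = 0.0081 in limma). In PTPN21 cells it was between 1.83 and 2.49 FPKM with DMSO and between 7.83 and 9.55 with VCR, with a log2 fold change of 1.61 (adjusted p = 0.0106 in limma). IFNGR2, a chain of the interferon gamma receptor, rose in both constructs, with log2 fold changes of 0.54 (adjusted p = 0.0387 in limma) and 0.71 (adjusted p = 0.0126 in limma). These passed in 10 and 18 of 20 alternatives. PARP14 was between 1.41 and 1.73 FPKM in all NC libraries, between 0.577 and 0.844 in PTPN21+DMSO and between 2.18 and 3.46 in PTPN21+VCR, with an interaction of 1.07 that missed the threshold (adjusted p = 0.157 in limma). The genes beside IFI16 and AIM2 on chromosome 1, PYHIN1 and MNDA, which belong to the same family, did not exceed 0.0593 and 0.30 FPKM in any library.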
